A study of Mus musculus with 24 samples.

Results

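The change in gene expression with estradiol after ovariectomy differed between the alveolar bone with its teeth and the gum around them for 22 genes. Among them were Pi15 and Trpc6, which were higher with estradiol in bone, and Fam129c, Lrmp, Myb and Dpp4, which were lower. To find them, 16 of the 24 libraries of the series were used, 4 in each of 4 groups: estradiol-treated (OVXE2) and vehicle-treated (OVX) ovariectomized mice, for the dentoalveolar complex (DAC) and for the gingiva. The DAC is the jawbone that holds the molars, freed of soft tissue and taken with the teeth, and the gingiva is the gum around the 3 maxillary molars. For each of 13832 genes the log2 change with estradiol in gingiva was subtracted from that in the DAC, and this log2 difference was tested. A positive difference means that the change with estradiol was more positive in the DAC.

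All mice of the 4 groups were female wild-type C57BL/6J, 11 weeks old at the start, and lost both ovaries on day 0. OVXE2 mice were injected under the skin with 1 µg of estradiol benzoate in corn oil each day from day 4, and OVX mice with corn oil alone. Every mouse, OVX included, had a 5-0 silk thread tied around the second molars of the upper jaw on both sides on day 7, which causes periodontitis, and was killed on day 14. No mouse without a ligature and no sham-operated mouse enters the comparison, so it is one of estradiol against vehicle in ovariectomized mice with periodontitis. Libraries of a group are biological replicates by their titles. Neither separate mice for each library nor shared mice for the tissues are stated, so the p-values measure the spread between these libraries, part of which may be technical.

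Estradiol acts through nuclear receptors, chiefly estrogen receptor alpha (Esr1), that bind DNA and regulate genes such as the progesterone receptor gene. In bone, loss of estrogen is known to raise resorption by osteoclasts and to expand the precursors of B lymphocytes in marrow, and estradiol given to mice lowers these precursors. The DAC contains marrow, bone cells, vessels and tooth pulp, whereas gingiva is a stratified epithelium over connective tissue.

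Marker genes of the libraries went with the tissue labels. Genes of osteoblasts and osteocytes took 6.27 to 9.14% of gene counts in the DAC and 0.229 to 0.607% in gingiva, whereas keratins and other genes of stratified epithelium took 0.158 to 0.963% in the DAC and 9.68 to 11.4% in gingiva. Depth was 23697984 to 29248358 gene counts per DAC library and 18598422 to 24463247 per gingival library. DAC OVX library 1 stood apart: genes of nasal glands and respiratory epithelium took 0.488 to 1.17% of counts in DAC OVXE2, against 14.5% in DAC OVX library 1 and 0.343 to 1.98% in the other DAC OVX libraries. In gingiva these genes took 0.229 to 0.892% in OVXE2, against 0.113 to 0.428% in OVX. Of the 18 tested, 16 had a negative difference (45.6% of all genes), with a median of −1.05, and 0 passed. All 4 tested salivary gland genes had a negative difference, with a median of −1.28. Brain neuron genes were highest in DAC OVXE2 libraries 1 and 2, at 0.0174 and 0.0187%, and in DAC OVX library 1, at 0.0201%, against 0.00671 to 0.00881% in the other DAC libraries. Read counts from bulk tissue cannot tell fewer cells of a type from less RNA per cell.

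Of the 22 genes past an edgeR adjusted p of 0.05, which is 0.159% of those tested, 6 had a positive difference (0.0434%) and 16 a negative one (0.116%). At an unadjusted p under 0.05 there were 1067 genes (7.71%). In the DAC alone 302 genes changed with estradiol (2.18%), 82 upward (0.593%) and 220 downward (1.59%). In gingiva alone 0 genes passed (0%) in edgeR and 0 in limma-voom, while DESeq2 called 54 and 1006 genes had an unadjusted edgeR p under 0.05 (7.27%). Libraries varied more in the DAC, with a biological coefficient of variation of 0.306 against 0.166 in gingiva and 0.249 over all 16 libraries. The fit took the spread of each gene from both tissues together. It can thus make gingival intervals too wide and gingival p-values too high, and the reverse in the DAC. That 0 genes passed in gingiva does not show that none changed there. All 6 positive genes rose and all 16 negative genes fell in the DAC; since the DAC libraries also enter the difference, the 2 sets of calls are not independent. The 95% interval of the gingival change included 0 for 21 of the 22 genes, and its sign was that of the DAC for 11 and the opposite for 11. In the DAC the 4 OVXE2 and 4 OVX values did not overlap for all 22 (6.39% of all genes), and in gingiva for 1 gene, Limch1 (5.49% of all genes). The number of genes called was sensitive to single libraries: it lay between 8 and 19 with any one left out, and for 12 of the 16 libraries it fell by over 1.5 times. Without DAC OVX replicate 4 it was lowest, at 8, and without the 3 DAC libraries rich in brain neuron genes it was 9. The 302 genes of the DAC were 181 without DAC OVX replicate 4 and 190 without DAC OVXE2 replicate 1. Lrmp, Fam129c, Trpc6, Pi15, Dpp4, Myb and Whrn, 7 genes in all, passed whichever of the 16 libraries was left out.

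**Figure D1:**
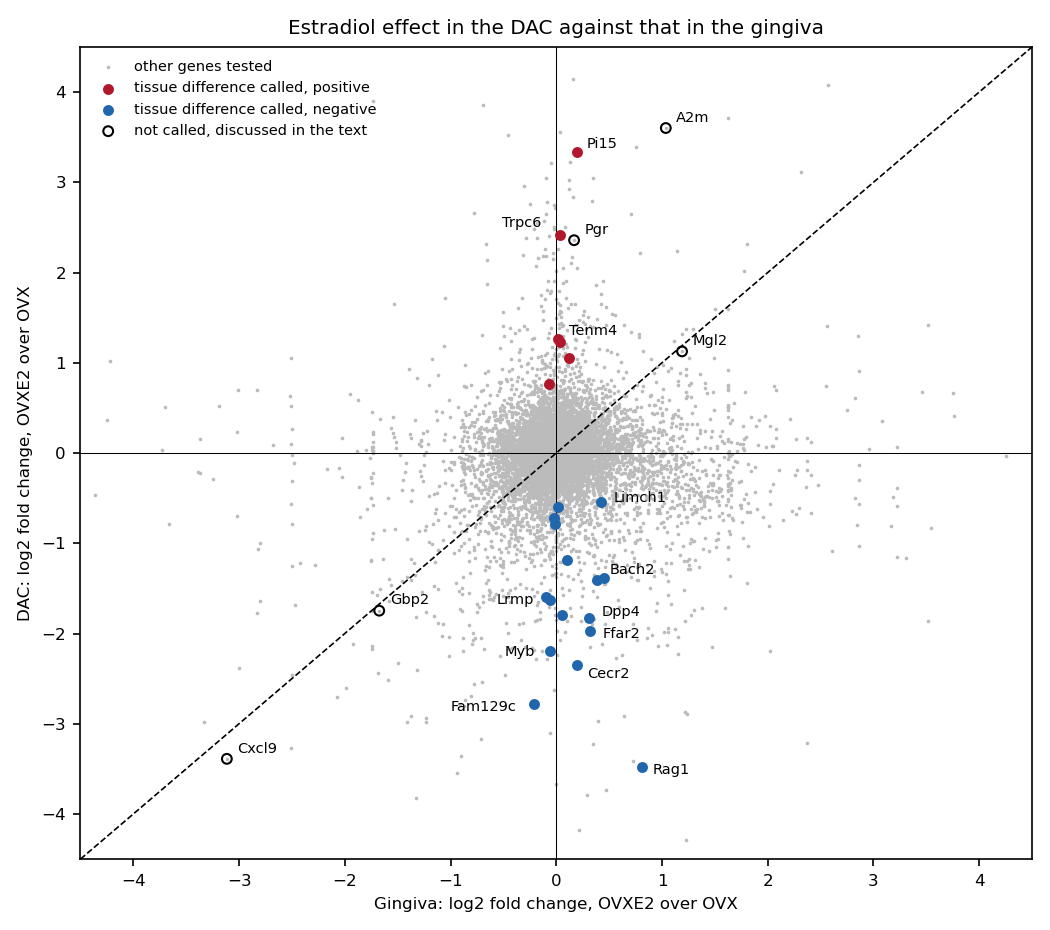
Log2 change with estradiol in the DAC (vertical axis) against that in gingiva (horizontal axis) for each gene tested, with a dashed line of equal change, with the 22 genes whose changes differ between tissues in colour. The coloured genes lie above or below 0 on the DAC axis and between −0.21 and 0.81 on the gingival axis, and 12 genes lie outside the axes.

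Most genes that changed in the DAC could not be shown to differ from gingiva. Of the 82 that rose in the DAC, 55 (67.1%) also had a positive change in gingiva, and of the 220 that fell, 169 (76.8%) also had a negative one, where 49.1% of all genes had the same sign in both tissues. At an unadjusted p under 0.05, 7 of the risen genes were higher and 0 lower in gingiva with estradiol, and 2 of the fallen genes were higher and 53 lower, where 4.35% of all genes were higher and 2.92% lower. Their median log2 change was −1.19 in the DAC and −0.20 in gingiva, and that of the risen genes was 0.66 in the DAC and 0.06 in gingiva. The sizes cannot be compared as they stand, since these genes were chosen for their change in the DAC.

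**Figure D2:**
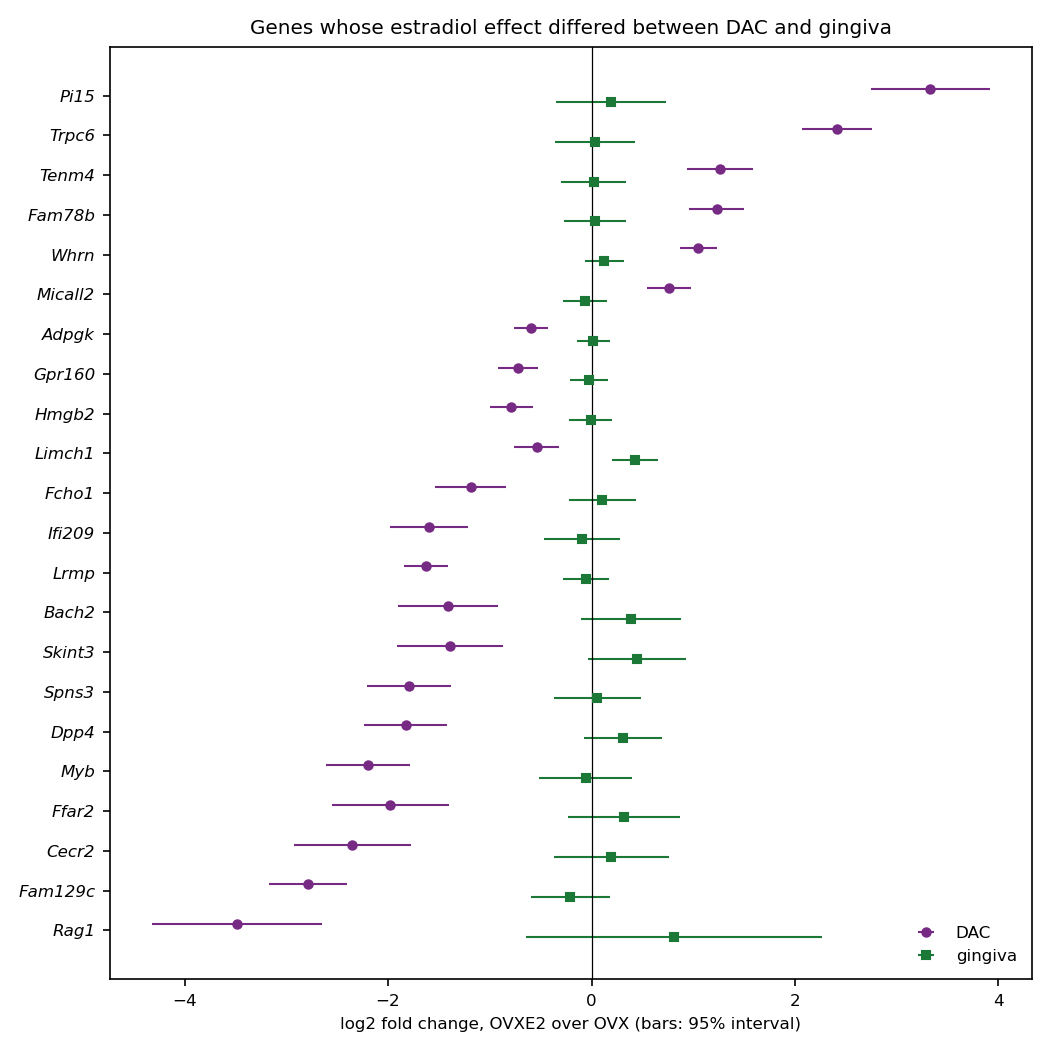
Log2 change with estradiol in the DAC and in gingiva with 95% intervals for the 22 genes, in order of the difference. Intervals in the DAC all lie clear of 0, and those in gingiva include 0 except for Limch1.

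Pi15, which encodes a secreted peptidase inhibitor, had the largest positive difference among the 22 genes that passed (ENSMUSG00000067780, chromosome 1, 17601901 to 17630939, plus strand, GRCm38). It stood at 44.7, 56.5, 34.5 and 50.1 CPM (counts scaled to library size) in DAC OVXE2, against 5.95, 3.26, 2.61 and 6.55 CPM in DAC OVX. In gingiva it stood at 14.0, 15.8, 13.2 and 12.6 CPM in OVXE2, against 8.62, 15.8, 11.6 and 12.7 CPM in OVX. With estradiol every DAC library was above all gingival libraries and with vehicle every one was below them, while the gingival groups overlapped. The log2 change was 3.33 ± 0.27 (SE) in the DAC and 0.19 in gingiva, with a 95% interval of −0.35 to 0.74, and the log2 difference was 3.14 ± 0.37 (edgeR adjusted p = 0.00151).

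Trpc6 encodes a calcium-permeable channel opened downstream of phospholipase C (ENSMUSG00000031997, chromosome 9, 8544142 to 8680741, plus strand). Its values were 33.3, 37.5, 27.4 and 26.8 CPM in DAC OVXE2, against 6.61, 6.95, 4.19 and 5.65 CPM in DAC OVX. In gingiva they were 1.51, 1.79, 1.48 and 1.51 CPM in OVXE2, against 1.302, 1.76, 1.45 and 1.63 CPM in OVX. The DAC groups were far apart and the gingival groups were interleaved at a low level. The log2 change was 2.42 ± 0.16 in the DAC and 0.04 in gingiva (95% interval −0.35 to 0.43), a log2 difference of 2.38 ± 0.24 (edgeR adjusted p = 0.000336).

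Whrn, Fam78b, Tenm4 and Micall2 rose less. Whrn, the gene of the scaffold protein whirlin known from sensory hair cells, stood at 40.5, 42.3, 42.5 and 41.5 CPM in DAC OVXE2, against 19.7, 21.4, 20.3 and 19.1 CPM in DAC OVX, and at 6.55 to 8.18 CPM in gingival OVXE2, against 6.30 to 7.63 CPM in gingival OVX. Its DAC libraries hardly varied within a group, and the log2 difference was 0.92 ± 0.12 (edgeR adjusted p = 0.00482). Fam78b averaged 105 ± 3.8 CPM (SD, n = 4) in DAC OVXE2 and 44.7 ± 3.5 CPM in DAC OVX, with 4.86 ± 0.42 CPM in gingival OVXE2 and 4.76 ± 1.3 CPM in gingival OVX, a log2 difference of 1.19 ± 0.19. Tenm4, which encodes a transmembrane adhesion protein of the teneurin family, averaged 53.6 ± 11 CPM in DAC OVXE2 and 22.4 ± 3.5 CPM in DAC OVX, with 67.7 ± 9.1 CPM in gingival OVXE2 and 66.7 ± 8.7 CPM in gingival OVX, a log2 difference of 1.24 ± 0.21. Micall2, whose protein links Rab GTPases to actin at cell junctions, had a log2 change of 0.76 in the DAC and −0.06 in gingiva. The edgeR adjusted p was 0.0206 for Fam78b, 0.0361 for Tenm4 and 0.0365 for Micall2, and of the 16 fits that each left out 1 library, Fam78b passed in 12, Tenm4 in 2 and Micall2 in 3.

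**Figure D3:**
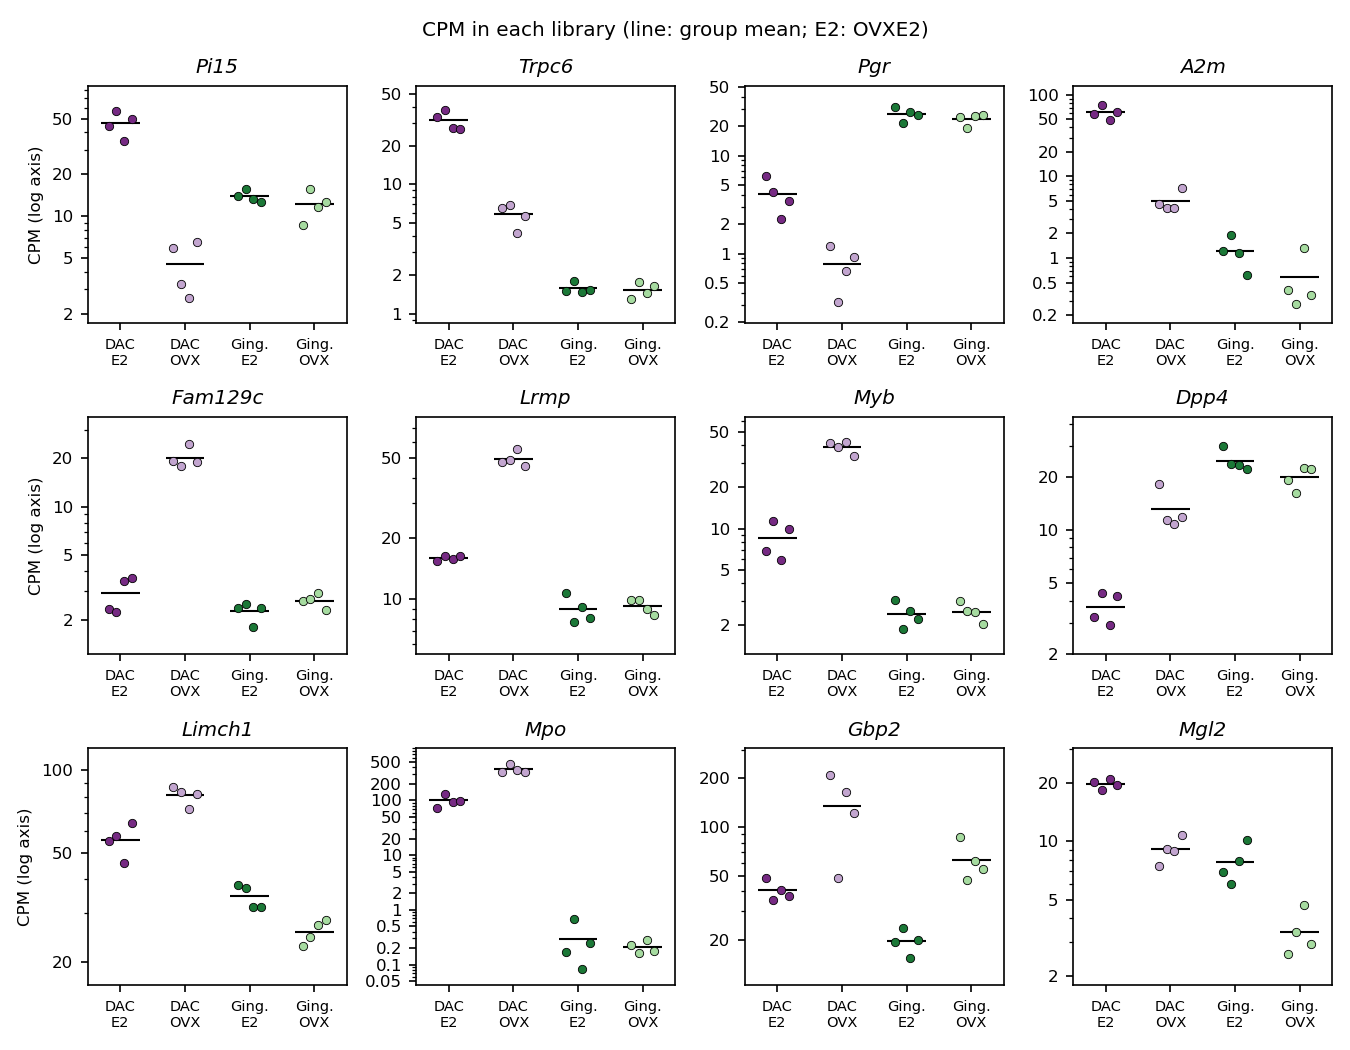
CPM on a log axis in each of the 16 libraries for genes described in the text, with OVXE2 left of OVX in each tissue and bars at group means. Pi15 and Trpc6 separate in the DAC and overlap in gingiva, and Limch1 separates in both tissues in opposite directions.

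Pgr, A2m and Aldh1a2 rose in the DAC, but their differences between tissues did not pass. The progesterone receptor gene Pgr (ENSMUSG00000031870, chromosome 9, 8899833 to 8968611, plus strand) stood at 6.18, 4.28, 2.24 and 3.48 CPM in DAC OVXE2, against 1.21, 0.322, 0.672 and 0.931 CPM in DAC OVX. In gingiva it was far more abundant, at 31.4, 21.3, 27.7 and 26.1 CPM in OVXE2, against 24.5, 19.04, 25.1 and 26.0 CPM in OVX, and the groups overlapped. Pgr rose in the DAC, with a log2 change of 2.36 ± 0.33 (edgeR adjusted p = 0.000963), and had a log2 change of 0.17 in gingiva (95% interval −0.40 to 0.74). Its log2 difference of 2.19 ± 0.43 missed the threshold (edgeR adjusted p = 0.0654). It passed without DAC OVXE2 replicate 3, at an adjusted p of 0.0211, but that library has the lowest DAC OVXE2 value. Leaving out the lowest value raises the change, so this pass lends Pgr no support. A2m, the gene of the protease inhibitor alpha-2-macroglobulin, rose in the DAC by 3.60 ± 0.33 and had a log2 change of 1.04 in gingiva (unadjusted p = 0.0352), where its highest value was 1.92 CPM. Its log2 difference of 2.57 ± 0.57 did not pass either (adjusted p = 0.119). Aldh1a2, which makes retinoic acid, rose by 1.49 ± 0.18 in the DAC, with a log2 change of 0.38 in gingiva and a log2 difference of 1.10 ± 0.25 (adjusted p = 0.138).

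Esr1 itself averaged 15.3 ± 3.1 CPM in DAC OVXE2 and 22.5 ± 0.57 CPM in DAC OVX, with 3.45 ± 0.51 CPM in gingival OVXE2 and 3.31 ± 0.89 CPM in gingival OVX (SD, n = 4 each). It was thus higher in the DAC than in gingiva in every group, and its log2 difference of −0.62 ± 0.25 did not pass (edgeR adjusted p = 0.604). Of the 16 tested genes of a list of estrogen-responsive genes, 5 had a positive and 11 a negative difference, and 2 positive and 4 negative ones had an unadjusted p under 0.05 (2.86% and 4.86% of all genes). Of these 1 passed, Myb, with a negative difference. Their median log2 difference was −0.40, against 0.03 over all genes tested.

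Several genes with a negative difference are known from lymphoid and blood-forming cells. Rag1, the gene of the recombinase that assembles antigen receptors in B and T cell precursors, had the largest negative difference among the 22 genes that passed (ENSMUSG00000061311, chromosome 2, 101638282 to 101649501, minus strand). It stood at 1.45, 2.08, 0.582 and 2.64 CPM in DAC OVXE2, against 29.3, 17.04, 15.5 and 14.6 CPM in DAC OVX. Gingival values were 0.129, 0.256, 0.295 and 0.164 CPM in OVXE2, against 0.0449, 0.0550, 0.234 and 0.132 CPM in OVX. The DAC groups were separate, whereas all 8 gingival libraries were under 0.3 CPM, so a fall there was hardly measurable at this depth. The log2 difference was −4.29 ± 0.78 (edgeR adjusted p = 0.0419), and the call held without only 2 of the 16 libraries. Without DAC OVX library 1, which had the highest value, the call was lost at an adjusted p of 0.0692.

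Fam129c, a gene known for its expression in B cells, was measurable in gingiva as well (ENSMUSG00000043243, chromosome 8, 71597648 to 71607936, plus strand). Its values were 2.33, 2.23, 3.49 and 3.62 CPM in DAC OVXE2, against 19.2, 18.01, 24.4 and 18.8 CPM in DAC OVX. In gingiva they were 2.37, 2.51, 1.81 and 2.37 CPM in OVXE2, against 2.60, 2.70, 2.91 and 2.29 CPM in OVX. The DAC level under estradiol was thus close to that of gingiva, where the groups overlapped. The log2 change was −2.79 ± 0.18 in the DAC and −0.21 in gingiva (95% interval −0.60 to 0.18), a log2 difference of −2.58 ± 0.25 (edgeR adjusted p = 0.000308).

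Lrmp, which encodes a membrane protein of the endoplasmic reticulum in lymphoid cells, had the smallest p of all genes (ENSMUSG00000030263, chromosome 6, 145115653 to 145174934, plus strand). It stood at 15.5, 16.3, 15.8 and 16.4 CPM in DAC OVXE2, against 48.0, 49.0, 55.5 and 45.5 CPM in DAC OVX. Its gingival values were 10.8, 7.71, 9.15 and 8.14 CPM in OVXE2, against 9.97, 9.96, 8.95 and 8.37 CPM in OVX. Groups were tight and apart in the DAC and overlapped in gingiva. The log2 difference was −1.57 ± 0.15 (edgeR adjusted p = 0.000308).

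Myb, the transcription factor gene of blood progenitors, fell likewise (ENSMUSG00000019982, chromosome 10, 21124935 to 21160984, minus strand). Its values were 6.85, 11.4, 5.91 and 9.84 CPM in DAC OVXE2, against 41.4, 39.0, 42.2 and 33.6 CPM in DAC OVX, and 3.02, 1.87, 2.53 and 2.21 CPM in gingival OVXE2, against 2.96, 2.53, 2.48 and 2.03 CPM in gingival OVX. The log2 difference was −2.14 ± 0.29 (edgeR adjusted p = 0.00482), with a gingival log2 change of −0.06 (95% interval −0.51 to 0.40). The list of blood progenitor genes that holds Myb did not fall with it. Of its 10 tested genes, 5 had a positive and 5 a negative difference, with a median of 0.04. Bach2, the gene of a transcriptional repressor of B and T cells, averaged 10.9 ± 3.1 CPM in DAC OVXE2 and 28.9 ± 6.4 CPM in DAC OVX, with 14.4 ± 2.0 CPM in gingival OVXE2 and 11.0 ± 3.1 CPM in gingival OVX (SD, n = 4 each). Its log2 difference of −1.79 ± 0.32 (adjusted p = 0.0418) lost the call without any one of the 16 libraries, with an adjusted p of up to 0.153.

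Across a list of 10 B lymphopoiesis genes all 10 had a negative difference (45.6% of all genes). Their median was −1.70, or −1.58 without Rag2, which was at 0 in all gingival libraries. The median was −0.49 without gingival OVXE2 replicate 1 and −2.96 without gingival OVX replicate 3, the gingival libraries with most of these transcripts in their groups. Of the 10, Rag1 passed (0.159% of all genes did), 3 had an unadjusted p under 0.05 (7.71% of all genes), and 6 fell in the DAC (1.59% of all genes). Summed, these genes took 0.00674, 0.00749, 0.00576 and 0.00908% of counts in DAC OVXE2, against 0.0286, 0.0269, 0.0356 and 0.0285% in DAC OVX. In gingiva they took 0.00264, 0.00137, 0.00114 and 0.00163% in OVXE2, against 0.00154, 0.00119, 0.00568 and 0.00169% in OVX. The DAC groups did not overlap and the gingival groups did, at sums below those of every DAC library. Vpreb3, which partners the pre-B cell receptor, shows the limit: it fell in the DAC, at 2.02 to 2.64 CPM in OVXE2, against 16.3 to 25.2 CPM in OVX, but no gingival library exceeded 0.560 CPM. Its log2 difference of −3.04 ± 1.02 did not pass (edgeR adjusted p = 0.460) and was −0.72 with a single library left out, gingival OVXE2 replicate 1.

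The promoters of 3 genes with large differences, 1 positive and 2 negative, are shown for the letters they hold near the start. Each window is the 250 bases before the transcription start in RefSeq, build GRCm38.p6, 5′ to 3′ on the gene's strand: Trpc6 at chr9:8543892-8544141 (plus), Rag1 at chr2:101649533-101649782 (minus) and Dpp4, described further on, at chr2:62412232-62412481 (minus). Capitals mark matches to motifs of lymphoid transcription factors searched on both strands: TGTGGT of Runx factors, the E-box CAGCTG and the palindrome of Ebf1, which is TCCC and GGGA with 2 bases between.
Trpc6: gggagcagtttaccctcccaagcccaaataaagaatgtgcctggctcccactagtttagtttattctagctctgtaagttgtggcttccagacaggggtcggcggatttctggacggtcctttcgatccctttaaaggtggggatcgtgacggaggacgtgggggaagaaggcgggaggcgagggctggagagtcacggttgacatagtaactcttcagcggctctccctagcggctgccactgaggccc
Rag1: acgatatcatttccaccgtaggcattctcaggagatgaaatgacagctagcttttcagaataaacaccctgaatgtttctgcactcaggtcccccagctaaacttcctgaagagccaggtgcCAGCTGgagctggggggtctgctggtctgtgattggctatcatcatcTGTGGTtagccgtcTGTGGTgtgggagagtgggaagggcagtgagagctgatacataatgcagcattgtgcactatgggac
Dpp4: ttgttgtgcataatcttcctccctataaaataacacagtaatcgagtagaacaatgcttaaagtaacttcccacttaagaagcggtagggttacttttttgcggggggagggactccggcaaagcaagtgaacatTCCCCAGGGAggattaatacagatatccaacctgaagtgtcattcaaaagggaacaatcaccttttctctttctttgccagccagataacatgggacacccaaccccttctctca
The Trpc6 window holds none of these motifs. In Rag1 the TGTGGT copies begin 81 and 67 bases before the start and the E-box 128 bases before it, and in Dpp4 the palindrome begins 115 bases before it. Of 32851 promoter windows of this length, 14.0% hold TGTGGT, 4271 hold CAGCTG and 0.779% the Ebf1 palindrome. RefSeq windows were matched for 16 of the 22 genes, of which 4 (Adpgk, Fcho1, Gpr160 and Rag1) hold TGTGGT, 1 (Rag1) the E-box and 1 (Dpp4) the palindrome. The windows shown thus include the only matched genes with the E-box and the palindrome, and are not typical of the 16. The full palindromic estrogen response element, GGTCA and TGACC with 3 bases between, was in 0 of the 16 and in 0.0639% of all windows, and AGGTCA, the site of a single receptor unit, in 2 of the 16 (Ffar2 and Limch1) and in 14.0% of all windows. These matches describe letters only: no binding was measured, and more distant sites were not searched.

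Of the 12 tested genes of immature marrow neutrophils 8 fell in the DAC (1.59% of all genes did), and 8 did not reach 1 CPM in both tissues. Mpo, the gene of the granule enzyme myeloperoxidase, stood at 74.1, 131, 94.6 and 98.3 CPM in DAC OVXE2, against 329, 454, 363 and 332 CPM in DAC OVX, and at no more than 0.682 CPM in any gingival library. It fell in the DAC with a log2 change of −1.89 ± 0.23, and the log2 difference of −2.35 ± 0.59 did not pass (edgeR adjusted p = 0.215). Elane, the neutrophil elastase gene, and Camp, the cathelicidin gene, both chosen after their values were seen, also fell in the DAC, with log2 changes of −1.70 and −1.45, and had gingival means under 0.6 CPM. Ltf, the gene of lactoferrin, was well measured in gingiva: it averaged 346 ± 65 CPM in DAC OVXE2 and 798 ± 190 CPM in DAC OVX, with 182 ± 71 CPM in gingival OVXE2 and 110 ± 43 CPM in gingival OVX (SD, n = 4 each). Its log2 changes had opposite signs, −1.21 in the DAC (adjusted p = 0.0686) and 0.74 in gingiva (unadjusted p = 0.0327), and the log2 difference of −1.94 ± 0.44 did not pass (adjusted p = 0.138). Since Mpo, Elane and Camp were hardly measured in gingiva, Ltf does not stand for them there. From which cells the gingival Ltf counts came was not tested.

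Over these 12 genes 10 had a negative difference (45.6% of all genes), with a median of −1.70, and 8 had a negative one with an unadjusted p under 0.05 (4.86% of all genes). The 11 genes of mature neutrophils had a median log2 difference of −0.59, or −0.33 without gingival OVXE2 replicate 2, and 0 of them changed in the DAC. All 12 erythroid genes had a negative difference (45.6% of all genes), with a median of −1.15, though 0 passed and none had an unadjusted p under 0.05 in gingiva. Only 5 of the 12 reached 1 CPM in both tissues, and over these the median was −0.70. In the DAC 0 of the 12 changed by themselves. Ffar2, the receptor for short-chain fatty acids on neutrophils and other cells, passed by itself. It averaged 1.58 ± 0.49 CPM in DAC OVXE2 and 6.19 ± 1.0 CPM in DAC OVX, with 4.59 ± 1.5 CPM in gingival OVXE2 and 3.67 ± 0.58 CPM in gingival OVX (SD, n = 4 each), a log2 difference of −2.30 ± 0.37 (edgeR adjusted p = 0.0213). Ffar2 kept the call in 10 of the 16 fits that left out 1 library.

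**Figure D4:**
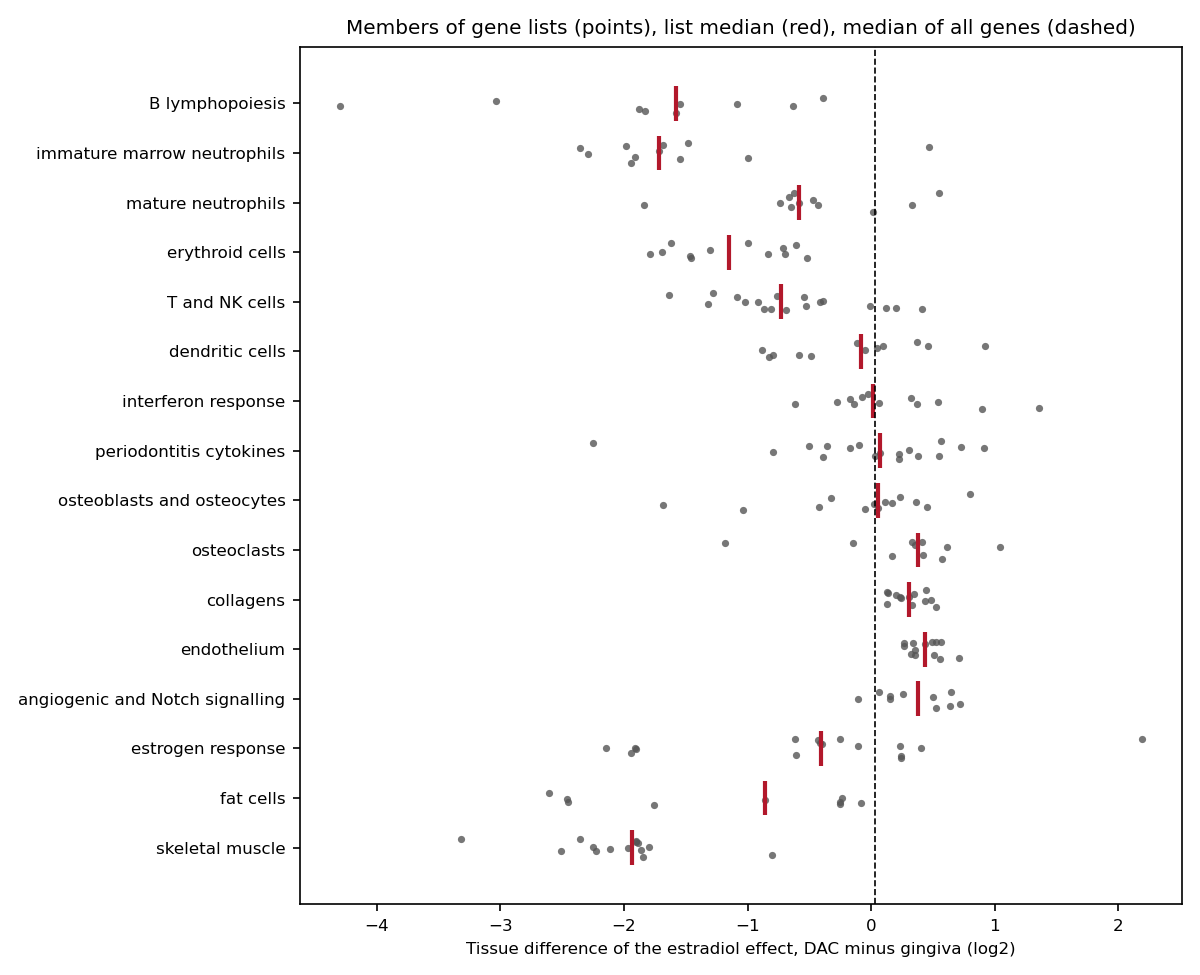
Log2 difference (DAC change minus gingival change) of each tested gene in selected lists, with the median of each list as a bar; members with 3 or fewer counts over each gingival group are left out. The B cell precursor genes shown lie below 0 and so do the immature neutrophil genes except Gfi1, endothelial and collagen genes lie above 0, and interferon response genes lie on both sides of it.

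Dpp4 encodes a serine peptidase of the cell surface (CD26) found on T cells, fibroblasts and epithelia (ENSMUSG00000035000, chromosome 2, 62330073 to 62412231, minus strand). It stood at 3.24, 4.38, 2.91 and 4.23 CPM in DAC OVXE2, against 18.4, 11.4, 10.9 and 11.9 CPM in DAC OVX. The gingival values were 29.9, 23.6, 23.4 and 22.1 CPM in OVXE2, against 19.1, 16.3, 22.4 and 22.1 CPM in OVX. The DAC groups were apart, and the gingival groups touched, with 3 of 4 OVXE2 libraries above every OVX library. The log2 change was −1.83 ± 0.19 in the DAC and 0.31 in gingiva (95% interval −0.07 to 0.69), a log2 difference of −2.14 ± 0.26 (edgeR adjusted p = 0.00197). Without DAC OVX library 1 it was −1.93 (adjusted p = 0.00179).

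The other fallen genes had smaller or less certain differences. Cecr2, a bromodomain gene of chromatin remodelling, had a log2 difference of −2.55 ± 0.37 (edgeR adjusted p = 0.0115), and Spns3, of the spinster transporter family, one of −1.85 ± 0.28 (adjusted p = 0.0128); each kept the call in 14 of the 16 fits that left out 1 library. Skint3, an immunoglobulin-like gene of epithelia, averaged 0.526 ± 0.079 CPM in DAC OVXE2 and 1.39 ± 0.43 CPM in DAC OVX, with 3.17 ± 0.58 CPM in gingival OVXE2 and 2.32 ± 0.24 CPM in gingival OVX (SD, n = 4 each). Its log2 difference was −1.84 ± 0.33 (adjusted p = 0.0418) and held without only 1 of the 16 libraries.

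A further 5 genes lay outside the rule for named genes and were chosen after their values were seen, so that all 22 appear. Ifi209, an interferon-inducible gene, had a log2 difference of −1.50, and Fcho1, which starts clathrin-coated pits, one of −1.29. Hmgb2, a chromatin protein gene of dividing cells, had −0.78, the orphan receptor gene Gpr160 −0.70 and Adpgk, an ADP-dependent glucokinase gene, −0.61. Their gingival log2 changes were between −0.10 and 0.11, and the edgeR adjusted p was 0.0257 for Ifi209, 0.0361 for Fcho1, 0.0411 for Hmgb2, 0.0413 for Gpr160 and 0.0411 for Adpgk. Each of the 5 lost its call when any of at least 13 of the 16 libraries was left out.

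In 1 of the 22 genes estradiol went with separate groups of opposite direction in the tissues. Limch1, whose protein activates non-muscle myosin (ENSMUSG00000037736, chromosome 5, 66745827 to 67057158, plus strand), stood at 55.4, 57.3, 46.0 and 63.9 CPM in DAC OVXE2, against 86.6, 83.04, 72.3 and 81.5 CPM in DAC OVX. In gingiva it stood at 38.0, 37.1, 31.7 and 31.7 CPM in OVXE2, against 22.9, 24.6, 27.1 and 28.4 CPM in OVX. Every OVXE2 library was below every OVX library in the DAC and above every OVX library in gingiva. The log2 change was −0.54 ± 0.10 in the DAC (edgeR adjusted p = 0.0121) and 0.43 ± 0.11 in gingiva (unadjusted p = 0.00115, adjusted p = 0.393), a log2 difference of −0.97 ± 0.15 (adjusted p = 0.0158) that held without only 3 of the 16 libraries.

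Gpd1l, a glycerol-3-phosphate dehydrogenase-like gene chosen after its values were seen, had the same pattern but missed the threshold. It stood at 43.5, 48.9, 45.0 and 45.8 CPM in DAC OVXE2, against 70.0, 60.2, 56.2 and 57.2 CPM in DAC OVX, and at 37.7, 35.4, 42.9 and 43.1 CPM in gingival OVXE2, against 31.6, 25.5, 33.8 and 33.8 CPM in gingival OVX. The groups were separate in both tissues, and the log2 difference was −0.76 ± 0.14 (edgeR adjusted p = 0.0513). Car2, the carbonic anhydrase gene of osteoclasts and red cells, had log2 changes of −0.58 in the DAC and 0.60 in gingiva, with a log2 difference of −1.18 ± 0.29 that did not pass (adjusted p = 0.183).

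Several interferon-induced and dendritic cell genes had changes of the same sign in both tissues. The genes named here were chosen after their values were seen, except Isg15 and Nkg7. Cxcl9, an interferon-gamma-induced chemokine gene, stood at 20.01, 9.81, 13.2 and 3.59 CPM in DAC OVXE2, against 205, 22.3, 157 and 105 CPM in DAC OVX. In gingiva it stood at 7.41, 5.37, 1.94 and 4.66 CPM in OVXE2, against 61.2, 34.2, 28.2 and 44.3 CPM in OVX. Groups were separate in both tissues, with log2 changes of −3.39 ± 0.62 in the DAC (edgeR adjusted p = 0.00834) and −3.12 ± 0.63 in gingiva (unadjusted p = 0.000205, adjusted p = 0.237). The log2 difference was −0.27, with a wide 95% interval of −2.05 to 1.51.

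Gbp2, an interferon-induced GTPase gene, had log2 changes of −1.75 in the DAC and −1.67 in gingiva, and a log2 difference of −0.07 with a 95% interval of −1.04 to 0.89. The 12 interferon response genes had a median log2 change of −0.42 in the DAC and −0.69 in gingiva and a median log2 difference of 0.02, with 6 on either side of 0. Of these, 5 fell in the DAC (1.59% of all genes), and 9 had lower values in gingiva at an unadjusted p under 0.05 (2.92% of all genes). Isg15, an interferon-induced ubiquitin-like gene, differed most by p in this list, with log2 changes of 0.08 in the DAC and −1.28 in gingiva (log2 difference 1.36 ± 0.52, edgeR adjusted p = 0.573).

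Mgl2, a lectin gene of macrophages and dendritic cells, was higher with estradiol in both tissues. It stood at 20.4, 18.4, 21.1 and 19.6 CPM in DAC OVXE2, against 7.47, 9.16, 8.90 and 10.9 CPM in DAC OVX, and at 6.93, 6.05, 7.93 and 10.2 CPM in gingival OVXE2, against 2.60, 3.41, 4.69 and 2.95 CPM in gingival OVX. The groups did not overlap in either tissue. It rose in the DAC with a log2 change of 1.13, beside 1.19 in gingiva (edgeR unadjusted p = 1.76e-05, adjusted p = 0.237), and the log2 difference was −0.06 with a 95% interval of −0.61 to 0.49. The list of monocyte and macrophage genes that holds Mgl2 did not rise with it. Of its 11 tested genes, 5 had a positive and 6 a negative change in the DAC, and 3 a positive and 8 a negative one in gingiva. Of 12 dendritic cell genes tested, 4 had a positive and 8 a negative change in the DAC, 4 of them a fall that passed (1.59% of all genes). In gingiva 2 had a positive and 10 a negative change. The difference was positive for 5 and negative for 7, with a median of −0.08. Cd209a and Ccr7, which had the most negative DAC changes of these, had log2 changes of −1.82 and −1.89 in the DAC and of −1.33 and −1.07 in gingiva, and the log2 difference was −0.49 for Cd209a and −0.82 for Ccr7, both with intervals that include 0.

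T and NK cell genes mostly had lower values with estradiol in both tissues. Of the 18 tested, 17 had a negative change in the DAC and 17 in gingiva, against 6250 and 7224 of all 13832 genes. The medians were −1.16 in the DAC and −0.56 in gingiva. In the DAC 7 fell (1.59% of all genes), and 6 were lower in gingiva at an unadjusted edgeR p under 0.05 (2.92% of all genes). The difference was negative for 15 of the 18 (45.6% of all genes), with a median of −0.73, and 0 passed (0.159% of all genes). Nkg7, a granule membrane gene of cytotoxic cells, stood at 2.63, 5.57, 3.98 and 3.45 CPM in DAC OVXE2, against 14.6, 17.4, 18.5 and 17.2 CPM in DAC OVX, and at 1.55, 1.45, 0.632 and 1.31 CPM in gingival OVXE2, against 2.96, 1.87, 2.16 and 1.59 CPM in gingival OVX. The groups were apart in both tissues, though in gingiva only by the gap between 1.55 and 1.59 CPM. The log2 change was −2.11 in the DAC and −0.80 in gingiva (unadjusted p = 0.0138), and the log2 difference of −1.32 ± 0.38 did not pass (edgeR adjusted p = 0.340).

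Endothelial genes leaned the other way. All 13 tested had a positive difference (54.4% of all genes did), with a median of 0.44, against 0.03 over all genes. All 13 had a positive change in the DAC (7579 of all 13832 genes did), where 0 passed by themselves. Together they took 0.172, 0.192, 0.192 and 0.196% of counts in DAC OVXE2, against 0.115, 0.135, 0.144 and 0.152% in DAC OVX. In gingiva they took 0.0517, 0.0698, 0.0450 and 0.0559% in OVXE2, against 0.0384, 0.0642, 0.0627 and 0.0517% in OVX. The sums were apart in the DAC and overlapped in gingiva. Cdh5, the gene of vascular endothelial cadherin, averaged 250 ± 24 CPM in DAC OVXE2 and 169 ± 10 CPM in DAC OVX, with 80.5 ± 21 CPM in gingival OVXE2 and 68.6 ± 17 CPM in gingival OVX (SD, n = 4 each). Its log2 difference was 0.34 (95% interval −0.20 to 0.88).

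Angiogenic and Notch signalling genes went with them, with 9 of 10 positive differences (54.4% of all genes) and a median of 0.38. Dll4, the Notch ligand of sprouting vessels, rose in the DAC with a log2 change of 0.58 (edgeR adjusted p = 0.0409) and had −0.14 in gingiva. Its log2 difference of 0.72 ± 0.20 did not pass (adjusted p = 0.290), nor did those of Nrarp, a Notch target (0.63), Apln, the apelin gene (0.64), and Vegfc, a lymphatic growth factor gene (0.52), which were chosen after their values were seen. Wnt4, a Wnt ligand gene that rose in the DAC by 0.69, was far more abundant in gingiva, at 357 ± 11 CPM in OVXE2 and 414 ± 47 CPM in OVX (SD, n = 4 each), with a gingival log2 change of −0.21 and a log2 difference of 0.90 ± 0.22 (adjusted p = 0.198). The pacemaker channel gene Hcn4, also chosen after its values were seen, had log2 changes of 1.28 in the DAC and −0.21 in gingiva and a log2 difference of 1.49 ± 0.45 (adjusted p = 0.357). Its gingival level was low, at means of 0.580 CPM in OVXE2 and 0.676 CPM in OVX, so the change there was poorly measured.

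All 13 collagen genes had a positive difference (54.4% of all genes) with a median of 0.31, or 0.13 without gingival OVX replicate 2, and 0 passed. Osteoclast genes had a median log2 difference of 0.38, or 0.21 without gingival OVXE2 replicate 1. The difference was positive for 8 of 10 (54.4% of all genes), and 0 of them changed in the DAC by themselves. Together they took 1.14, 1.20, 1.17 and 1.05% of counts in DAC OVXE2, against 0.597, 0.983, 0.947 and 0.892% in DAC OVX, and 0.0350, 0.0608, 0.0548 and 0.0496% in gingival OVXE2, against 0.0389, 0.0649, 0.0569 and 0.0473% in gingival OVX. As for the endothelial genes, the sums were apart in the DAC and overlapped in gingiva, and 5 of the 10 genes were apart in the DAC (6.39% of all genes). For osteoblasts and osteocytes the median was 0.05. Of 17 cytokine genes of periodontitis 10 had a positive and 7 a negative difference, with a median of 0.07. Il17f, the gene of a cytokine of the interleukin 17 family, fell in the DAC with a log2 change of −2.24 ± 0.52 (edgeR adjusted p = 0.0383), at 0.287 to 0.879 CPM in OVXE2, against 0.844 to 4.78 CPM in OVX, with 1 library of each group in the overlap. In gingiva it stood at 1.07 to 2.25 CPM in OVXE2, against 0.937 to 2.69 CPM in OVX, and the log2 difference of −2.25 ± 0.72 did not pass (adjusted p = 0.416). Il17f is named as the gene of smallest p in its list. The log2 change in the DAC was −0.54 for Il17a, −0.16 for Il1b, 0.14 for Il6 and 0.05 for Tnfsf11, the RANKL gene. These 4 genes passed neither in the DAC (edgeR adjusted p of 0.891 or more) nor for the difference (0.833 or more).

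**Figure D5:**
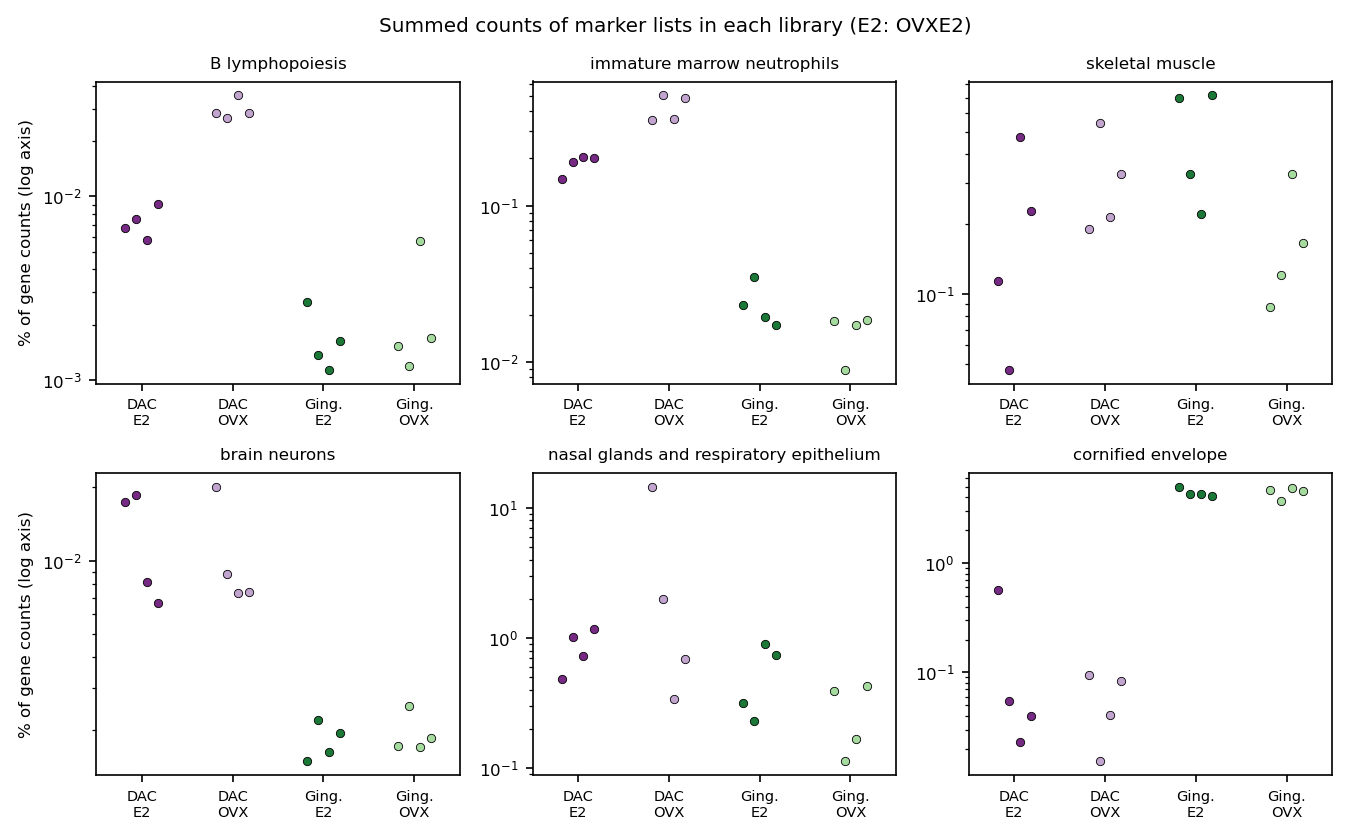
Share of gene counts taken by each of several marker lists in each library, on a log axis, with OVXE2 left of OVX in each tissue. B cell precursor and immature neutrophil sums separate in the DAC only. Skeletal muscle sums overlap between groups in both tissues, with the highest gingival sums in OVXE2, and the nasal sum of DAC OVX library 1 stands far above the rest.

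Skeletal muscle genes had the lowest median difference of the lists followed, with higher values in gingiva. All 14 had a negative difference (45.6% of all genes), with a median of −1.93. All 14 had a negative change in the DAC (median −0.51) and a positive one in gingiva (median 1.41). In gingiva 7 had an unadjusted p under 0.05 (4.35% of all genes had such a positive change). The sums were 0.114, 0.0470, 0.474 and 0.229% in DAC OVXE2, against 0.191, 0.546, 0.215 and 0.328% in DAC OVX. In gingiva they were 0.701, 0.327, 0.221 and 0.718% in OVXE2, against 0.0879, 0.120, 0.330 and 0.166% in OVX. The groups overlapped in both tissues, and no listed muscle gene was at 0 in any group. Neb, the gene of the muscle protein nebulin, had a log2 difference of −2.25 ± 0.74 (edgeR adjusted p = 0.451). Acacb, an acetyl-CoA carboxylase gene of muscle and fat, had a positive change in gingiva, as they did, but a positive one in the DAC too. Its log2 change was 0.30 in the DAC and 1.14 in gingiva (edgeR unadjusted p = 0.000708, adjusted p = 0.363), with a log2 difference of −0.84. Whether the muscle content of the samples plays a part in these gingival values was not tested.

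The share of reads on the other strand, a technical property, ran from 3.38 to 9.03% over the libraries. In edgeR 0 of all genes passed in the 10 libraries above 5% and 0 in the 6 libraries below 5%, while 583 of the larger and 392 of the smaller set had an unadjusted p under 0.05. Of the 22 genes, all 22 had such a p in the larger set and 19 in the smaller one; they were called on these same libraries, so these counts lend them no support. The smaller set had 2 residual degrees of freedom and 1 gingival OVX and 1 DAC OVXE2 library, which were assumed to vary like the others.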

How the data were processed

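Poly(A) RNA of gingiva and dentoalveolar complex was sequenced in paired-end mode, per the labels' protocols. Per the submitters' processing notes the tools were fastp, STAR and DESeq2 and the build was GRCm38 (mm10), with no version given in the sources used here. Raw gene counts were deposited by the authors, 1 table per library with 38321 gene IDs, in STAR's layout. Column 4, the opposite-strand counts, was used because most reads of each library fell there; lines that name no gene were dropped, and reads on no feature were 19.8 to 32.2%. GENCODE M21 named 38186 of the IDs.

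The 16 libraries were fitted in 1 model of 4 group means with edgeR 4.0.16 in R 4.3.3 (filterByExpr, TMM, glmQLFit with robust estimation, glmQLFTest; 12 residual degrees of freedom; 13832 genes), and the contrast (DAC OVXE2 − DAC OVX) − (gingiva OVXE2 − gingiva OVX) was tested with Benjamini-Hochberg adjustment over all genes at 0.05. CPM are TMM-scaled over the 16 libraries together and are not per length, so levels are compared between libraries and not between genes. Intervals are 95%. Genes with 3 or fewer counts summed over each gingival group, 212 in all, are taken as at the floor of detection there, and 0 of the 22 genes are among them.

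Genes were named by rule: up to 10 of each sign with the largest difference and groups that did not overlap in at least 1 tissue, up to 3 passed genes per list or the 1 gene of smallest p as values, genes of opposite sign in the tissues, and a panel of genes. Some genes of the panel are not printed here. Members, lists (44, with 680 symbols, 485 of them tested) and rules were chosen with earlier results of these data known, so no list was tested and the lists are described by counts and medians. The MHC class II list had 0 listed genes and is not analysed here. The gene test was tried on simulated data. No library was a copy of another in its group by their counts. Alternatives were other scalings, filters, DESeq2 1.42.0, limma-voom (limma 3.58.1), all 24 libraries, a replicate block, counts of either strand, 1 surrogate variable (sva 3.50.0), leaving out each library, and, chosen after seeing the data, sets of libraries by strand share or brain neuron counts. Same-numbered libraries did not vary together across tissues (correlations of −0.331 to 0.042) or treatments (−0.460 to 0.336), so replicate numbers were not taken to pair them.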

Additional observations from a re-analysis of the deposited data

Results flagged for a closer look

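The 22 genes whose test of the difference between tissues passed are the results that differ between groups. Their log2 differences (DAC change minus gingival change) were 3.14 for Pi15, 2.38 for Trpc6, 1.24 for Tenm4, 1.19 for Fam78b, 0.92 for Whrn and 0.83 for Micall2. On the negative side they were −4.29 for Rag1, −2.58 for Fam129c, −2.55 for Cecr2, −2.30 for Ffar2, −2.14 for Dpp4 and for Myb, −1.85 for Spns3, −1.84 for Skint3, −1.79 for Bach2, −1.57 for Lrmp, −1.50 for Ifi209, −1.29 for Fcho1, −0.97 for Limch1, −0.78 for Hmgb2, −0.70 for Gpr160 and −0.61 for Adpgk.

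In 17 of 276 groups of 4 libraries (6.16%) 1 library lay far from the other 3 by Dixon's ratio, and chance gives about 1 in 20. DAC OVX library 1 was the high one for Rag1 (29.3 CPM), Dpp4 (18.4 CPM), Bach2 (38.5 CPM), brain neuron genes (0.0201% of counts) and nasal gland genes (14.5% of counts); it was not tested whether these share a source. Elsewhere in the DAC the library far from the rest was at 111 CPM for Fam78b in OVXE2, at 0.567% for cornified envelope genes in OVXE2 and at 14.4 CPM for Acacb in OVX. In gingival OVXE2 such libraries were at 1.79 CPM for Trpc6, 1.07 CPM for Camp, 0.560 CPM for Vpreb3 and 2.25 CPM for Il17f. In gingival OVX they were at 1.31 CPM for A2m, 2.69 CPM for Il17f, 0.00568% for B lymphopoiesis genes, 0.00891% for immature neutrophil genes and 0.140% for estrogen response genes.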

How the results depend on the processing

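With the 22, 302 and 0 genes called for the tissue difference, the DAC and gingiva as the base, DESeq2 called 112, 498 and 54, and 1 surrogate variable gave 37 for the difference and 480 in the DAC. An adjusted p under 0.01 left 7 and 138. Leaving out single libraries gave 8 to 19 genes for the difference, 181 to 292 in the DAC and 0 to 2 in gingiva, where the 2 genes passed without DAC OVX replicate 2 and 1 gene without gingival OVX replicate 3. Of listed genes, 4 passed, and 3 to 5 with a library left out. A replicate block, though the numbers do not pair the libraries, left 14 genes for the difference, and a block nested in treatment 5. Among settings chosen after seeing the data, the other-strand set as a term left 14; the sets of higher and of lower other-strand share gave 0 and 0 for the difference and 61 and 0 in the DAC; leaving out the 3 DAC libraries richest in brain neuron genes gave 9 and 87, and leaving out the richest of each treatment 13 and 155. The causes of these shifts were not tested, but the last settings fit fewer libraries. Other scalings moved the median of all genes by under 0.1 on the log2 scale. For the differences near 0, signs turned: Cxcl9 lay between −0.71 and 0.11 with single libraries left out, at 0.46 in the higher other-strand set and at 0.18 without the neuron-richest library of each treatment. Gbp2 lay between −0.34 and 0.23 with single libraries left out, at 0.0861 in limma-voom, 0.0865 in limma-voom with weights by tissue and 0.0909 in the higher set, at 0.0701 with the nested block, and at 0.15 and 0.29 without the 3 or the richest of each treatment. Mgl2 lay between −0.26 and 0.10 with single libraries left out and at 0.13 in the lower set, and Il17f at 0.54 in the lower set. The median over interferon response genes lay between −0.16 and 0.17 with single libraries left out and at −0.0141 over genes of at least 1 CPM in both tissues, and that over dendritic cell genes between −0.22 and 0.0226. The medians of the other 12 lists followed kept their sign.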

Other observations

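Genes of fat cells, which the text above does not describe, had a negative difference in all 9 tested members (45.6% of all genes), with a median of −0.86. Of these, 3 had an unadjusted edgeR p under 0.05 (4.86% of all genes had such a negative difference). Over the 8 members of at least 1 CPM in both tissues the median was −0.56. The median over all tested members was −0.30 without DAC OVX replicate 4. Their summed share was 0.0322, 0.0288, 0.0336 and 0.0325% in DAC OVXE2, against 0.0311, 0.0356, 0.0305 and 0.0446% in DAC OVX, and 0.0215, 0.0169, 0.0175 and 0.0241% in gingival OVXE2, against 0.0146, 0.0177, 0.0210 and 0.0178% in gingival OVX. The groups overlapped in both tissues, and 0 of the genes changed in the DAC.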
